A study of Mus musculus with 12 samples.

Results

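The proteasome is the large protease that degrades proteins tagged with ubiquitin, and the transcripts described here are those of its subunits, its activators and the factors that assemble it. Members were the array probe sets annotated to exactly 1 gene whose symbol starts with Psm, a letter from a to g and a number, without the interferon-inducible catalytic subunits Psmb8, Psmb9 and Psmb10. The rule found 53 probe sets of 47 genes, out of 21789 probe sets and 19938 genes with 1 symbol. Psmc3ip and Psme3ip1 share the symbol pattern but are not parts of the proteasome, which left 45 genes on 51 probe sets. Psma3 had 3 probe sets, and Psma5, Psmb3, Psmc1 and Psmd2 had 2 each. The annotation gives these probe sets the same gene, and copies of nearly identical sequence elsewhere in the genome can make such values uncertain.

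The cells were EL-4, a T lymphoma line of the mouse, and their total RNA was hybridised to 12 Affymetrix Mouse Gene 1.0ST arrays. The 4 groups of 3 biological replicates were cells given cycloheximide (CHX) and P/I, cells given the solvent DMSO and P/I, cells given CHX and left unstimulated, and cells given DMSO and left unstimulated. CHX, an inhibitor of protein synthesis, was applied at 10 µg/ml for 30 min before stimulation, and P/I was phorbol myristate acetate at 10 ng/ml with 1 µM ionomycin for 4 h, an activation that bypasses the T cell receptor. Unstimulated cells had 0 h of P/I by the labels, and neither the labels nor the methods say how long the unstimulated CHX cells stayed in CHX. P/I and the time spent in CHX therefore cannot be told apart within CHX-treated cells. The same limit holds for differences between the P/I effects with CHX and with DMSO. The comparison of CHX without P/I may cover a shorter time in CHX.

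The 20S core of the proteasome is a barrel of alpha rings, which gate the entry, around beta rings, which hold the protease sites. The 19S particle caps the core, and its base of ATPases unfolds substrates while its receptors and lid bind ubiquitin chains and remove them. Alternative activators can take the place of the 19S particle, and dedicated chaperones build the rings and the base. In activated T cells protein turnover rises, and cells short of proteasome activity raise the subunit genes together through the transcription factor Nrf1, which is itself degraded by the proteasome.

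Values were log2 robust multichip average (RMA) values, which can be compared between arrays for 1 probe set but not between probe sets. Differences were tested with limma on all 12 arrays and called where the p adjusted over 23410 annotated probe sets was under 0.1. The mean over an array was 10.5 to 10.9 for T cell markers, 5.04 to 5.45 for B cell markers, 5.13 to 5.43 for myeloid markers and 6.13 to 6.63 for fibroblast or erythroid markers, averages over different probe sets that give only a rough check of the cell type. Arrays of 1 group correlated at 0.983 to 0.994. Il2, the cytokine gene that marks activation, stood at 8.63, 5.45 and 6.03 in CHX P/I cells, 12.36, 11.56 and 12.13 in DMSO P/I cells, 4.38, 4.71 and 4.85 in CHX unstimulated cells, and 4.43, 4.57 and 4.67 in DMSO unstimulated cells. The first replicate of the CHX P/I cells thus kept a higher Il2 level than the other two.

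The 4 arrays of replicate 1 stood apart for these genes, and not for them alone. Over all tested probe sets, their deviations from the group means correlated negatively with those of replicate 2 and 3 arrays of other groups (-0.58 to -0.1). Over the 14 genes of the 20S core, the mean level was 10.24, 10.0 and 10.01 in CHX P/I cells, 10.53, 10.32 and 10.25 in DMSO P/I cells, 10.43, 10.06 and 10.06 in CHX unstimulated cells, and 10.46, 10.13 and 10.09 in DMSO unstimulated cells. The first value of each group was the highest. Over the 17 genes of the 19S particle, the mean level was 10.21, 9.95 and 9.97 in CHX P/I cells, 10.4, 10.1 and 10.12 in DMSO P/I cells, 10.31, 9.89 and 9.89 in CHX unstimulated cells, and 10.29, 9.87 and 9.81 in DMSO unstimulated cells, with the same array on top. Counts of called members are therefore also given without these 4 arrays. In RMA values of bulk RNA, less of a transcript in every cell and fewer cells that hold it cannot be told apart.

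**Figure D1:**
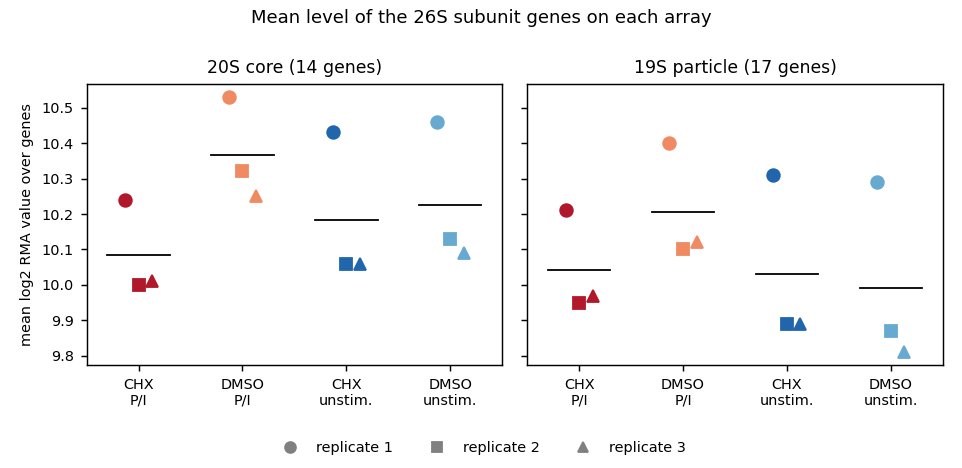
Mean log2 RMA value (y axis) of the 14 genes of the 20S core (left) and the 17 genes of the 19S particle (right) on each of the 12 arrays, by group (x axis), with bars at the group means and a marker shape for each replicate number. Replicate 1 (circles) is the highest in every group, and within a replicate number the DMSO P/I array is above the CHX P/I array.

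P/I in DMSO-treated cells asked whether activation changes proteasome transcripts. Of the 53 probe sets, 2 were higher and 0 were lower at an adjusted p under 0.1, against 9.05% of all tested probe sets higher and 8.42% lower. At an unadjusted p under 0.05 there were 6, against 5587 of the 23410 tested probe sets. The differences leaned one way, with 42 probe sets positive and 11 negative and a median log2 fold change of 0.18, against -0.03 over all tested probe sets. By role, the median was 0.16 for the alpha ring, 0.15 for the beta ring, 0.24 for the 19S ATPases and 0.23 for the 19S lid. It was 0.07 for the scaffold and ubiquitin receptor of the 19S base, where 2 of 4 probe sets were negative. The median was 0.17 for the assembly chaperones, 0.13 for the alternative activators (2 of 4 negative) and -0.09 for the tissue-specific 20S subunits. The inhibitor protein PI31 had 0.21.

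Psmd14, the deubiquitinating enzyme of the lid that strips ubiquitin from substrates, was higher with P/I. It stood at 10.83, 10.45 and 10.64 in DMSO P/I cells, against 10.38, 10.26 and 10.18 in DMSO unstimulated cells. The groups did not overlap, and the log2 fold change was 0.37 ± 0.11 (SE, n = 3 each, limma adjusted p = 0.0538), a 1.29-fold difference. Psmd9, a chaperone that assembles the base, stood at 8.38, 8.33 and 8.29 in DMSO P/I cells, against 8.11, 8.0 and 7.83 in DMSO unstimulated cells. All 3 P/I values were above all 3 unstimulated values, and the log2 fold change was 0.36 ± 0.11 (SE, limma adjusted p = 0.0611). The call of Psmd14 was lost without replicate 1 or 3 of the DMSO P/I cells or replicate 2 or 3 of the DMSO unstimulated cells (limma adjusted p = 0.153, 0.131, 0.14 and 0.183). For Psmd9 it was lost without any 1 of the 3 DMSO P/I replicates or without replicate 2 or 3 of the DMSO unstimulated cells (limma adjusted p = 0.125, 0.116, 0.115, 0.134 and 0.23).

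More members passed when the spread between replicate numbers was taken out. With a block for the replicate number, 18 of 53 probe sets (34%) were higher and 1 was lower with P/I, against 13% higher and 12.9% lower over all tested probe sets. Without the 4 arrays of replicate 1 the counts were again 18 higher and 1 lower, against 12% and 12.6%, and 14 of the 18 higher probe sets were the same in both fits. Psmc3ip, which is not a part of the proteasome, was among the 18 both times. Leaving out replicate 2 of every group, or replicate 3, gave 0 higher, so the count rests on which arrays enter. For leave-outs other than replicate 1 of every group, here and below, shares over all tested probe sets are not given. A loss of calls there cannot be read as particular to these genes. Without single arrays, the count of 2 higher became 0 without replicate 1 or 3 of the DMSO P/I cells or replicate 2 or 3 of the DMSO unstimulated cells, and 8 without replicate 1 of the DMSO unstimulated cells. With the block, the higher probe sets included 9 of 19 of the 19S particle and 2 of 18 of the 20S core, and without replicate 1 they were 8 and 5.

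Among the members that passed in both of these fits, Psmd12, a lid subunit, stood at 10.83, 10.3 and 10.44 in DMSO P/I cells, against 10.59, 9.95 and 9.89 in DMSO unstimulated cells. The groups overlapped through the high replicate 1 of the unstimulated cells, although P/I was higher within each replicate number. The log2 fold change was 0.38, with limma adjusted p = 0.309 without and 0.0158 with the replicate block, and 0.00502 without replicate 1. Psme3, the nuclear activator PA28 gamma, stood at 10.86, 10.45 and 10.66 in DMSO P/I cells, against 10.49, 10.05 and 10.2 in DMSO unstimulated cells, a log2 fold change of 0.41 (limma adjusted p = 0.117, and 0.00294 with the block). These groups overlapped as well.

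The 1 lower probe set in both of these fits was Psmg1, a chaperone that starts the alpha ring. It stood at 9.86, 9.28 and 9.54 in DMSO P/I cells, against 10.2, 9.65 and 9.8 in DMSO unstimulated cells, which is lower within each replicate number but with overlapping groups. The log2 fold change was -0.32 (limma adjusted p = 0.369, 0.0118 with the block and 0.0752 without replicate 1). Psmg2, its partner, had a log2 fold change of -0.27 (limma adjusted p = 0.629, and 0.206 with the block). The 7 assembly chaperones therefore held members on both sides, between -0.32 and 0.36.

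**Figure D2:**
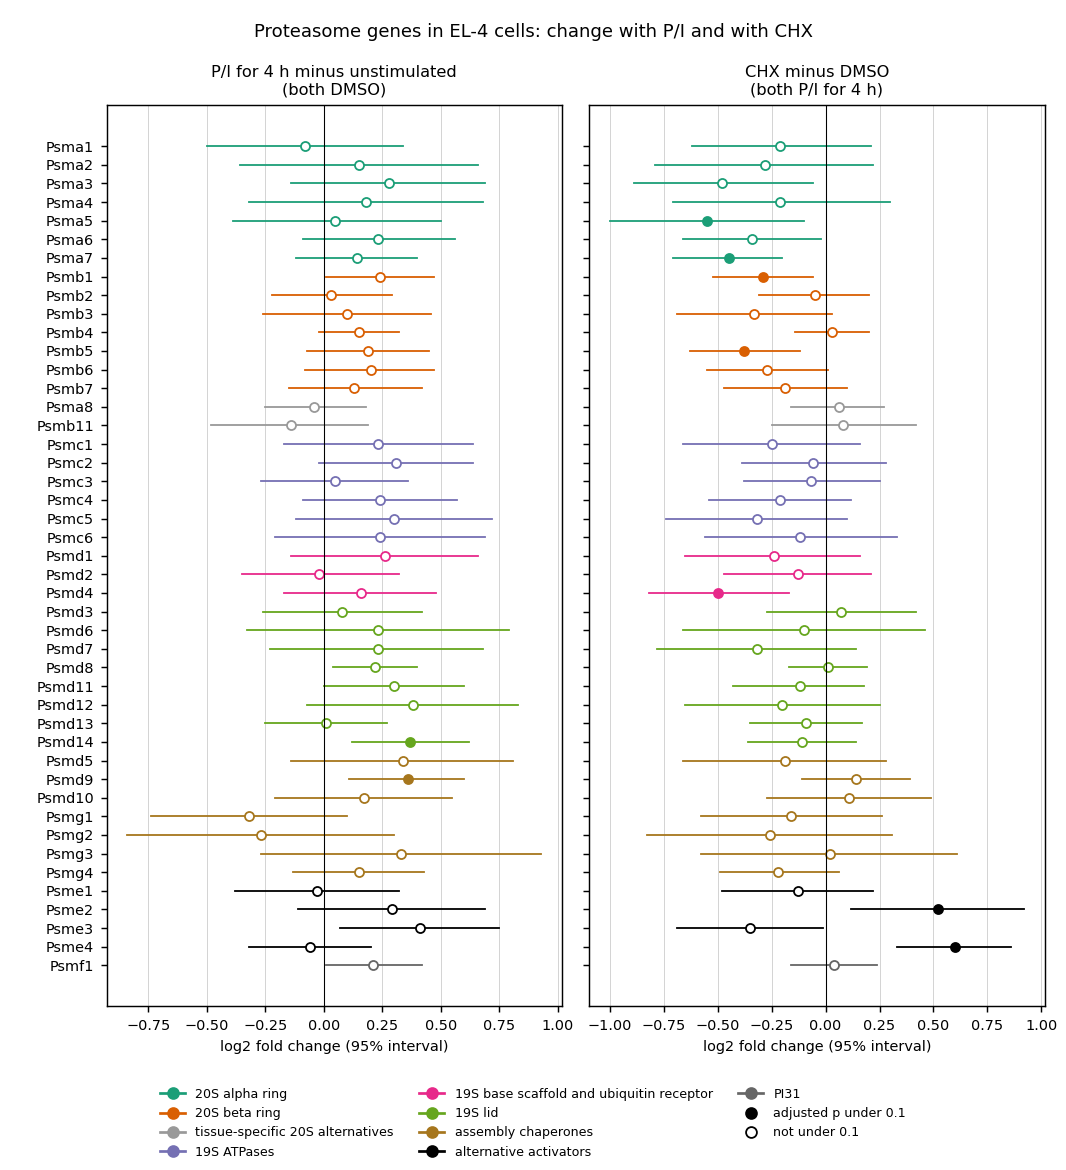
Log2 fold change (x axis) with its 95% interval for 45 proteasome genes, 1 probe set per gene, for DMSO P/I minus DMSO unstimulated cells (left) and CHX P/I minus DMSO P/I cells (right), coloured by role and filled where the limma adjusted p is under 0.1. On the left 2 genes are filled, Psmd14 and Psmd9, and most points lie right of 0. On the right most points lie left of 0, with Psme2 and Psme4 filled on the other side. Both sides use the same DMSO P/I arrays, with opposite sign.

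CHX in P/I-stimulated cells asked which of these levels depend on protein synthesis during activation. Of the 53 probe sets, 8 were lower and 2 were higher in CHX P/I cells than in DMSO P/I cells, against 12% of all tested probe sets lower and 13.2% higher. The share lower in this fit was 15.1%, and the calls fell unevenly by role. In the 20S core 7 of 18 probe sets, from 6 of 14 genes, were lower and the median log2 fold change was -0.34, while in the 19S particle 1 of 19 was lower and the median was -0.12. Over all members the median was -0.2, with 41 of 53 negative, against 0.01 over all tested probe sets. The DMSO P/I arrays enter this comparison and P/I in DMSO with opposite sign, so their medians are not independent. Without replicate 1, 2 or 3 of the DMSO P/I cells, the member median was 0.1, 0.22 and 0.24 for P/I in DMSO. For CHX in P/I cells it was -0.05, -0.25 and -0.22. The difference between core and particle was not tested.

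In the alpha ring, Psma5 stood at 9.31, 9.0 and 8.9 in CHX P/I cells, against 10.06, 9.38 and 9.4 in DMSO P/I cells, on the brighter of its probe sets. All CHX values were below all DMSO values. The log2 fold change was -0.55 ± 0.2 (SE, limma adjusted p = 0.0847), and on the other probe set, at 7.97, 7.96 and 7.86 in CHX P/I cells against 8.43, 8.23 and 8.34 in DMSO P/I cells, it was -0.41 ± 0.1 (SE, limma adjusted p = 0.0148). The call of the brighter probe set was lost without replicate 2 or 3 of the CHX P/I cells, replicate 1 of the DMSO P/I cells, or replicate 2 or 3 of the CHX unstimulated cells (limma adjusted p = 0.206, 0.254, 0.265, 0.106 and 0.108).

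Psma7, another subunit of the alpha ring, stood at 9.92, 9.73 and 9.72 in CHX P/I cells, against 10.31, 10.23 and 10.18 in DMSO P/I cells. The groups were well apart, and the log2 fold change was -0.45 ± 0.12 (SE, limma adjusted p = 0.0157). The call held without each single array and was lost without replicate 2 of every group, or replicate 3. Psma3 was called on 1 of its 3 probe sets, where it stood at 9.51, 9.2 and 9.04 in CHX P/I cells, against 9.96, 9.83 and 9.6 in DMSO P/I cells (log2 fold change -0.55, limma adjusted p = 0.067). The other probe sets of Psma3 both gave -0.48, with limma adjusted p = 0.106 and 0.146. Every alpha ring probe set had a negative value, between -0.55 and -0.21.

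In the beta ring, Psmb5, the chymotrypsin-like protease subunit that proteasome inhibitor drugs target, stood at 9.96, 9.6 and 9.68 in CHX P/I cells, against 10.16, 10.11 and 10.11 in DMSO P/I cells. The groups did not overlap, and the log2 fold change was -0.38 ± 0.12 (SE, limma adjusted p = 0.0402). The call was lost without replicate 2 or 3 of the CHX P/I cells (limma adjusted p = 0.16 and 0.131). Psmb1, a subunit with no protease activity, stood at 8.96, 9.19 and 9.3 in CHX P/I cells, against 9.44, 9.53 and 9.35 in DMSO P/I cells (log2 fold change -0.29, limma adjusted p = 0.0764).

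Psmb3, also without protease activity, was called on 1 of its 2 probe sets (log2 fold change -0.44, limma adjusted p = 0.046), and the other gave -0.33 (limma adjusted p = 0.214). The other protease subunits, Psmb6 and Psmb7, had log2 fold changes of -0.27 and -0.19 and were not called (limma adjusted p = 0.183 and 0.428). Without replicate 1 of every group both were called, at -0.38 and -0.3 (limma adjusted p = 0.0126 and 0.0562). Psmb2 and Psmb4 differed least in this ring. Psmb2 had a log2 difference of -0.05, with a 95% interval from -0.31 to 0.2. Psmb4 stood at 11.14, 11.11 and 11.16 in CHX P/I cells and 11.11, 11.17 and 11.04 in DMSO P/I cells. Its log2 difference of 0.03 had a 95% interval from -0.14 to 0.2.

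In the 19S particle, the 1 called gene was Psmd4, the receptor of the base that binds ubiquitin chains. It stood at 9.55, 9.24 and 9.39 in CHX P/I cells, against 10.13, 9.76 and 9.78 in DMSO P/I cells, without overlap, and the log2 fold change was -0.5 ± 0.15 (SE, limma adjusted p = 0.0319), a 0.708-fold level. The call was lost without replicate 2 of the CHX P/I cells or replicate 1 of the DMSO P/I cells (limma adjusted p = 0.126 and 0.105). The 7 probe sets of the ATPases lay between -0.32 and -0.06 and the 8 of the lid between -0.32 and 0.07, with 0 called. Psmd14, the lid gene called with P/I, differed by -0.11 (95% interval -0.36 to 0.14).

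Both higher members were alternative activators. Psme4 encodes PA200, an activator that works without ATP or ubiquitin, and it stood at 9.31, 9.72 and 9.78 in CHX P/I cells, against 9.12, 8.92 and 8.98 in DMSO P/I cells. Its log2 fold change was 0.6 ± 0.12 (SE, limma adjusted p = 0.00352), a 1.51-fold higher level, and the call held without each single array. The lowest CHX value was from the replicate with the highest Il2. Without that array the log2 fold change was 0.74 (limma adjusted p = 0.000343), and without replicate 1 of every group it was 0.8 (limma adjusted p = 9.81e-05). The call was lost without replicate 2 of every group, or replicate 3.

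Psme2 encodes the beta subunit of PA28, an activator that interferon raises. It stood at 10.48, 9.98 and 10.35 in CHX P/I cells, against 10.11, 9.57 and 9.56 in DMSO P/I cells, so that the lowest CHX value lay below the highest DMSO value. The log2 fold change was 0.52 ± 0.18 (SE, limma adjusted p = 0.0649), a call that was lost without replicate 1 or 3 of the CHX P/I cells or replicate 2 or 3 of the DMSO P/I cells (limma adjusted p = 0.202, 0.178, 0.194 and 0.212). Psme1, the alpha subunit of the same ring, stood at 10.65, 10.3 and 10.46 in CHX P/I cells and 10.92, 10.31 and 10.56 in DMSO P/I cells, a log2 difference of -0.13 with a 95% interval from -0.48 to 0.22. Psme3 had a log2 fold change of -0.35 and was not called (limma adjusted p = 0.159). Without replicate 1 of every group it was called lower, at -0.31 (limma adjusted p = 0.054).

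Without the 4 arrays of replicate 1, 17 probe sets (32.1%) were lower and 3 higher with CHX, against 15.2% and 17.2% of all tested probe sets. Of the 17, 12 were among the 18 probe sets of the 20S core, 3 among the 19 of the 19S particle, and 1 was Psmc3ip. Psmb1 was no longer among them (limma adjusted p = 0.265), and the remaining 7 of the 8 were. Without replicate 2 of every group, or replicate 3, 1 was lower and 0 higher. Without single arrays, the count lower was 2 without replicate 2 of the CHX P/I cells, 4 without its replicate 3 and 3 without replicate 1 of the DMSO P/I cells, and the count higher was 1 without replicate 1 or 3 of the CHX P/I cells or replicate 2 or 3 of the DMSO P/I cells.

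The scale of the arrays also bore on this count. Centring each array on its median left 2 members lower and 2 higher, and another quantile normalization gave 12 lower and 2 higher. Over all tested probe sets the calls were 3096 higher and 2818 lower on the deposited values, 3751 and 2194 after centring, and 4201 and 2669 after quantile normalization. The median over members was negative on each scale, at -0.2, -0.14 and -0.18.

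**Figure D3:**
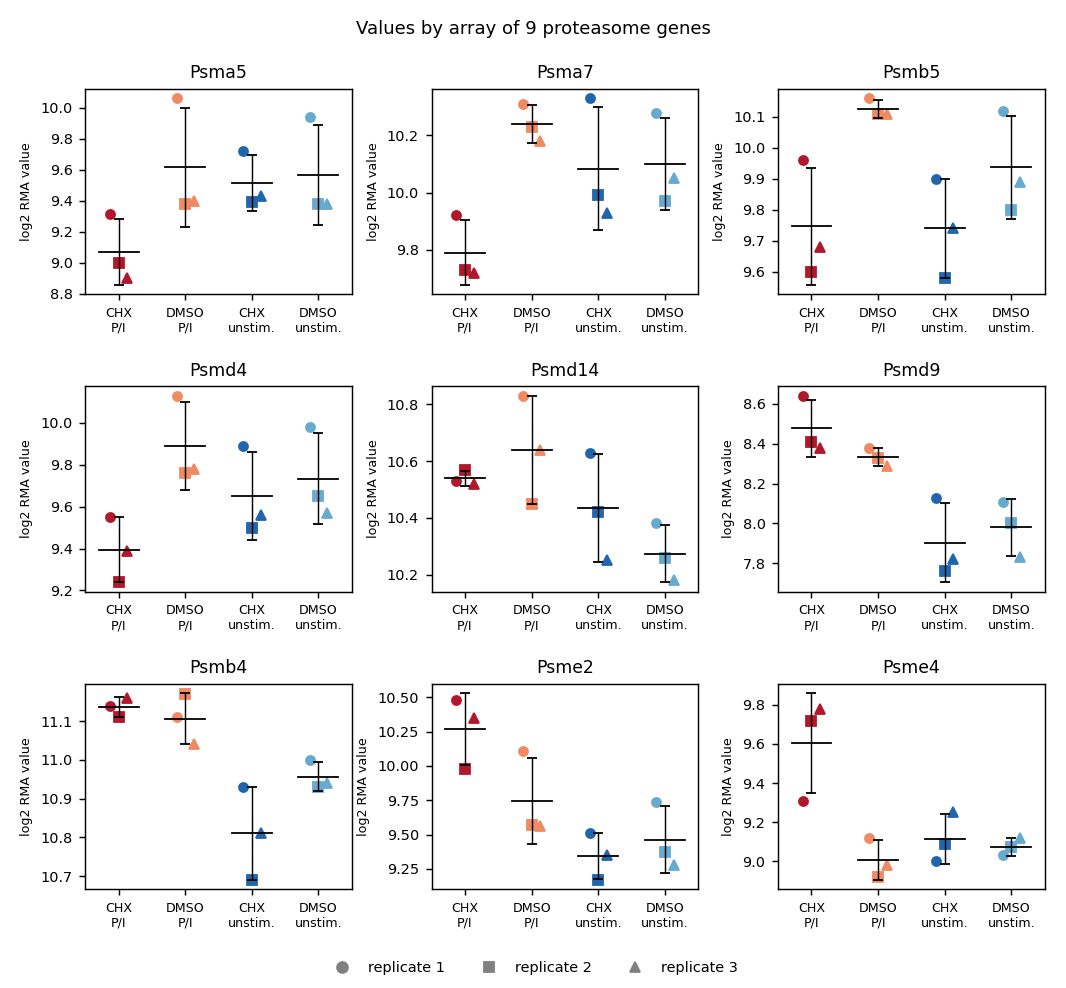
Log2 RMA value (y axis, scaled for each gene) on each array for 9 proteasome genes that were called in at least 1 comparison, by group (x axis), with the group mean and SD and a marker shape for each replicate number. In the CHX P/I cells Psma5, Psma7 and Psmd4 lie below the DMSO P/I cells, and Psme4 lies above all other groups.

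Promoters were set beside these levels for a member of each kind: Psma7 of the core and Psmd4 of the 19S particle, which were lower with CHX, and the activators Psme2 and Psme4, which were higher. RefSeq sequences on build GRCm38.p6 matched 37 of the 45 genes and not Psma8, Psmb1, Psmb2, Psmb7, Psmc3, Psmd3, Psmd7 and Psmg2. The windows are the 250 bases before the transcript start, at chr2:180042465-180042714 (minus strand) for Psma7, chr3:95042615-95042864 (minus strand) for Psmd4, chr14:55591102-55591351 (minus strand) for Psme2 and chr11:30771525-30771774 (plus strand) for Psme4. Capitals mark matches, on either strand, to the motifs searched. The first was GGGCGG, known as the box of Sp factors and here called the Sp box. The next was CCAAT, which the factor NF-Y binds. The ETS site, bound by a large family of transcription factors, was searched as CCGGAAG. The antioxidant response core, the element that Nrf1 and Nrf2 bind, was searched as TGANNNNGC.
Psma7: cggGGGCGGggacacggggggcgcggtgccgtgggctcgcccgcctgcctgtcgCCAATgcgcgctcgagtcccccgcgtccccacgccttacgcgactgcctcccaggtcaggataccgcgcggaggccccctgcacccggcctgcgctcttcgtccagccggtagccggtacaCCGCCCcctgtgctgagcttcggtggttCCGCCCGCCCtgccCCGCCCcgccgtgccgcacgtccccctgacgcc
Psmd4: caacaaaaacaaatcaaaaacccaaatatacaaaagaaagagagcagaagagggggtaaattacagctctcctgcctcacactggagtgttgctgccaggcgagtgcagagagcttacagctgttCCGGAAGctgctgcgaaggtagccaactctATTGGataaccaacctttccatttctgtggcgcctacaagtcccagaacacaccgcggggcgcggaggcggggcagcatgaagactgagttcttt
Psme2: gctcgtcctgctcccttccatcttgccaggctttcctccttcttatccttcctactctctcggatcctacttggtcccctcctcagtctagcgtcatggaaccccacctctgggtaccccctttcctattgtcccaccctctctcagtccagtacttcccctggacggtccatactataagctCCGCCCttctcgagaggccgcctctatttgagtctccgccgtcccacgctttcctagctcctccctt
Psme4: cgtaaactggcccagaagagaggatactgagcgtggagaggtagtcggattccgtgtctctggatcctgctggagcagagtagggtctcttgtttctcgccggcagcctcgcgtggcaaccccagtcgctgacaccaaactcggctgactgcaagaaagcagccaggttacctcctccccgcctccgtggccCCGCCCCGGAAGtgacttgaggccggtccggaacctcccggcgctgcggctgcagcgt

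The Sp box stands in Psma7, Psme2 and Psme4 above, the ETS site in Psmd4 and Psme4, and the NF-Y motif in Psma7 and Psmd4, while the antioxidant response core is in none of the 4 windows. Across the 37 promoters, 11 (29.7%) held the ETS site, against 7.05% of all 27025 promoters of the table. They included 8 of 14 genes of the 19S particle and 0 of 11 of the 20S core. The Sp box was in 21 of 37 (56.8%), against 32.9% of all promoters. The NF-Y motif was in 13 of 37 (35.1%), against 34.5%, and the antioxidant response core in 13 of 37 (35.1%), against 35.1%. In 5 of the 37, matches of different motifs overlapped, as the Sp box and the ETS site of Psme4 do. Matches of letters are not evidence of binding, and the table's promoters include genes of all kinds.

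P/I in CHX-treated cells gave 5 probe sets higher and 1 lower, against 10.2% and 11.6% of all tested probe sets, and a median of -0.05 against 0.02. With replicate number as a block, counts became 5 higher and 13 lower, against 13.5% and 16.9%, and without replicate 1 they were 8 and 6, against 13% and 15.3%. The 5 higher were called in all 3 of these fits. Without replicate 2 of every group the counts were 2 and 0, and without replicate 3 they were 1 and 0.

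Psme2 had the largest value, at 10.48, 9.98 and 10.35 in CHX P/I cells, against 9.51, 9.17 and 9.35 in CHX unstimulated cells. The groups did not overlap, and the log2 fold change was 0.93 ± 0.18 (SE, limma adjusted p = 0.00376), a 1.9-fold difference. Psme4 stood at 9.31, 9.72 and 9.78 in CHX P/I cells, against 9.0, 9.09 and 9.25 in CHX unstimulated cells, again without overlap and with a log2 fold change of 0.49 ± 0.12 (SE, limma adjusted p = 0.0135). For Psmd9 the same held, at 8.64, 8.41 and 8.38 in CHX P/I cells, against 8.13, 7.76 and 7.82 in CHX unstimulated cells (log2 fold change 0.57, limma adjusted p = 0.00416).

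Psmb4, a beta subunit that was not called between CHX P/I and DMSO P/I cells, stood at 11.14, 11.11 and 11.16 in CHX P/I cells, against 10.93, 10.69 and 10.81 in CHX unstimulated cells. Its log2 fold change was 0.33 ± 0.08 (SE, limma adjusted p = 0.0123). Psmd8, a lid subunit, stood at 10.31, 10.03 and 10.26 in CHX P/I cells, against 9.97, 9.87 and 9.89 in CHX unstimulated cells (log2 fold change 0.29, limma adjusted p = 0.0327). The 1 lower probe set was the dimmer one of Psma5 (-0.33, limma adjusted p = 0.0469). The brighter one gave -0.45 (limma adjusted p = 0.18, and 0.00292 with the block), and Psma7 gave -0.3 (limma adjusted p = 0.117, and 0.0144 with the block).

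The chaperone pair of the alpha ring passed as lower with the block and without replicate 1, and not in the fit on all arrays without it. Psmg1 stood at 9.63, 9.24 and 9.32 in CHX P/I cells, against 10.16, 9.7 and 9.64 in CHX unstimulated cells, a log2 difference of -0.43 (limma adjusted p = 0.166, and 0.00169 with the block). Psmg2 stood at 8.04, 7.71 and 7.36 in CHX P/I cells, against 8.7, 8.16 and 8.15 in CHX unstimulated cells, a log2 difference of -0.63 (limma adjusted p = 0.132, and 0.0042 with the block). Neither pair of groups overlapped. Without single arrays the 1 lower call became 0 without replicate 3 of the CHX P/I cells or replicate 1 or 2 of the CHX unstimulated cells, 2 without replicate 2 of the DMSO P/I, replicate 3 of the CHX unstimulated or replicate 1 of the DMSO unstimulated cells, and 3 without replicate 1 of the CHX P/I or of the DMSO P/I cells.

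The difference between the P/I effects, with CHX minus with DMSO, was called for 1 probe set as higher and 0 as lower, against 6.04% and 7.62% of all tested probe sets. At an unadjusted p under 0.05 there were 4, against 5057 of the 23410 tested probe sets. The called probe set was Psme4, with a difference of 0.55 ± 0.17 (SE, limma adjusted p = 0.0642), from a P/I effect of 0.49 in CHX-treated and -0.06 in DMSO-treated cells. Its values in DMSO-treated cells overlapped, at 9.12, 8.92 and 8.98 with P/I, against 9.03, 9.07 and 9.12 unstimulated. The call was lost without any 1 of replicates 2 and 3 of the CHX P/I cells, 2 and 3 of the DMSO P/I cells, 1 and 2 of the CHX unstimulated cells, and 2 and 3 of the DMSO unstimulated cells, with limma adjusted p between 0.115 and 0.152. The count higher was 2 without replicate 1 of the DMSO P/I cells, and the count lower was 2 without replicate 1 of the DMSO unstimulated cells.

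Psme2 had a difference of 0.64 (limma adjusted p = 0.166). Of the 53 probe sets 44 had a negative difference and the median was -0.2, against 0.05 over all tested probe sets. The DMSO P/I arrays enter this difference too, so its median is not independent of those for P/I in DMSO and CHX in P/I cells. Without replicate 1 of every group, 2 were called higher and 11 lower, against 9.65% and 10.3%, and 6 of the 11 were probe sets of the alpha ring, from 3 genes (Psma3, Psma5 and Psma7). Psmc3ip was among the 11 as well. Without replicate 2, or replicate 3, there were 0 in both directions. On quantile-normalized values the calls over all tested probe sets split 2065 higher to 1625 lower, against 1413 to 1783 on the deposited values.

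**Figure D4:**
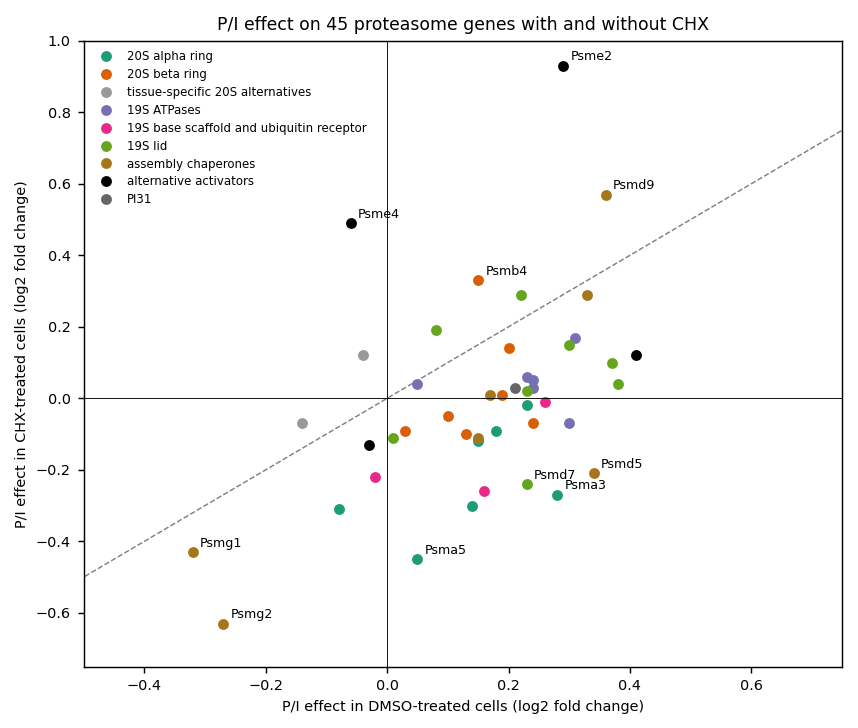
P/I effect in CHX-treated cells (y axis, log2 fold change) against the P/I effect in DMSO-treated cells (x axis, log2 fold change) for 45 proteasome genes, coloured by role, with a dashed line where the effects are equal. Most genes lie below the line, Psme2 and Psme4 lie above it, and Psma5 has the lowest y value of the 20S core.

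CHX without P/I left these genes with 0 calls in either direction, against 0.0299% of all tested probe sets higher and 0% lower. Against 1608 of the 23410 tested probe sets, 1 member probe set had an unadjusted p under 0.05. This was Psmf1, the inhibitor protein PI31, at 8.93, 8.83 and 8.87 in CHX unstimulated cells, against 8.76, 8.52 and 8.68 in DMSO unstimulated cells (log2 difference 0.23, limma adjusted p = 0.704). With the block 1 was called higher and 0 lower, against 0.491% and 0.0171%. It was Psmd5, a chaperone of the base, at 9.48, 8.88 and 8.97 in CHX unstimulated cells, against 9.14, 8.49 and 8.62 in DMSO unstimulated cells (log2 difference 0.36, limma adjusted p = 0.0969 with the block). Without replicate 1 there were 0 in both directions, against 2.83% and 0.38%. The median over members was 0.02 on the deposited values and -0.03 after quantile normalization, so it had no steady sign. The time these cells stayed in CHX is not stated, so a short exposure cannot be told apart from a lack of response.

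The tissue-specific subunits were dim in every group. Psma8, the alpha subunit of the testis, lay between 4.61 and 4.95 on the 12 arrays, and Psmb11, the beta subunit of the thymic cortex epithelium, between 5.39 and 5.97. Neither was called in any of the 5 comparisons. Of the genes that share the symbol pattern only, Psme3ip1 lay between 8.33 and 8.56. Psmc3ip, a factor of meiotic recombination, had a log2 fold change of 0.37 with P/I in DMSO-treated cells (limma adjusted p = 0.542, and 0.0455 with the block).

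The subunits and assembly factors with other symbols had 1 of 3 called with P/I in DMSO-treated cells. This was Pomp, the chaperone that matures the beta ring, with a log2 fold change of 0.46 ± 0.15 (SE, limma adjusted p = 0.0691). The interferon-inducible subunits had 0 of 3 higher and 2 of 3 lower. Over all tested probe sets 9.05% were higher and 8.42% lower. Both lists kept these counts with the block, against 13% and 12.9%, and without replicate 1, against 12% and 12.6%. Psmb9 had a log2 fold change of -0.72 ± 0.1 (SE, limma adjusted p = 0.000491) and Psmb8 of -0.55 ± 0.17 (SE, limma adjusted p = 0.0516). Psmb9 was higher in CHX P/I than in DMSO P/I cells, by 0.47 ± 0.1 (SE, limma adjusted p = 0.0059), and its P/I effects with CHX and with DMSO differed by 0.53 (limma adjusted p = 0.0372). These comparisons share the DMSO P/I arrays.

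Of the 7 measured genes that control proteasome transcription, 4 were higher and 0 lower with P/I in DMSO-treated cells, against 9.05% and 8.42% of all tested probe sets. Without replicate 1 the counts were the same, against 12% and 12.6%. With the block Keap1 was also lower (limma adjusted p = 0.0615), against 13% of all tested probe sets higher and 12.9% lower. Nfe2l1, which encodes Nrf1, had a log2 fold change of 0.79 ± 0.17 (SE, limma adjusted p = 0.00691) with P/I and of -0.74 ± 0.17 (SE, limma adjusted p = 0.007) for CHX in P/I cells. Nfe2l2, which encodes Nrf2, had values of 0.84 (limma adjusted p = 0.000914) and -0.52 (limma adjusted p = 0.013). Both comparisons share the DMSO P/I arrays. For Nfe2l1 and Nfe2l2 the P/I effect with CHX minus that with DMSO was -0.84 and -0.88 (limma adjusted p = 0.0447 and 0.0103).

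Their small Maf partners had other patterns. On the log2 scale Mafk was higher with P/I by 1.2 (limma adjusted p = 0.00387) and Maff by 0.73 (limma adjusted p = 0.00847), and Maff was a further 2.29 higher in CHX P/I than in DMSO P/I cells (limma adjusted p = 2.01e-06). Mafg was not called with P/I in DMSO-treated cells (-0.12, limma adjusted p = 0.692) or with CHX in P/I cells (0, limma adjusted p = 0.995). Keap1, which holds Nrf2 in check, was lower in CHX P/I than in DMSO P/I cells, with a log2 fold change of -0.39 (limma adjusted p = 0.0158).

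Of the 12 measured ubiquitin factors that bind the proteasome, 3 were higher and 0 lower with P/I in DMSO-treated cells. Over all tested probe sets 9.05% were higher and 8.42% lower. With the block the counts were 4 and 2, against 13% and 12.9% of all tested probe sets, and without replicate 1 they were 4 and 3, against 12% and 12.6%. The 3 higher without the block on all arrays were Zfand5, an activator of degradation, with 0.96 ± 0.09 (SE, limma adjusted p = 3.24e-05), Zfand2a with 0.62 (limma adjusted p = 0.00996) and Txnl1 with 0.36 (limma adjusted p = 0.0672). The p97 segregase pulls ubiquitinated proteins out of complexes. Of 8 probe sets for it and its cofactors, 4 were higher and 1 lower with P/I in DMSO-treated cells, against 9.05% and 8.42%. The counts were 6 and 1 with the block, against 13% and 12.9%, and again without replicate 1, against 12% and 12.6%. Vcp, which encodes p97, had a log2 fold change of 0.32 (limma adjusted p = 0.0424) with P/I and of -0.37 (limma adjusted p = 0.0138) for CHX in P/I cells. Here too the comparisons share the DMSO P/I arrays. The p97 cofactors Nploc4, Faf2 and Ufd1 rose by 0.36, 0.42 and 0.32 with P/I (limma adjusted p = 0.0226, 0.025 and 0.0318), while Ubxn1 was lower (-0.34, limma adjusted p = 0.0679). Faf2 was higher in CHX P/I than in DMSO P/I cells, by 0.6 ± 0.11 (SE, limma adjusted p = 0.00204).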

How the data were processed

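EL-4 cells were profiled on Affymetrix Mouse Gene 1.0ST arrays in 4 groups of 3 biological replicates. The deposited log2 values came from robust multichip averaging in Partek, for which the authors used a background correction adjusted for probe sequence and quantile normalization, and versions are not given in the sources used here. The table held 35399 probe sets, of which 21789 had 1 gene symbol, 1621 several and 11989 none in the platform annotation. The 23410 with a symbol entered limma 3.58.1 in R 4.3.3, with 1 mean per group, 8 residual and 3.63 prior degrees of freedom, two-sided tests and Benjamini-Hochberg adjustment, called at an adjusted p under 0.1 as the methods' false discovery rate. The number of arrays limits the precision.

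Members and gene lists were chosen with earlier results of these data known. Genes given array by array were up to 4 called members per comparison and direction by size of change, 1 probe set per gene (the brightest), and the others were described by role. From the other lists up to 3 members per comparison were taken by smallest p. Genes named beyond this (Psmd12, Psme3, Psme1, Psmg1, Psmg2, Psmb1, Psmb3, Psmd8, Psma3, Psmf1 and Psmd5 array by array, and Vcp and Ubxn1 for P/I in DMSO, among others) were chosen after their values were seen.

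The labels number replicates 1 to 3 in each group. Deviations of same-numbered arrays from their group means correlated at 0.27 to 0.57 (P/I in DMSO), 0.51 to 0.75 (CHX in unstimulated cells) and 0.3 to 0.48 (P/I in CHX), so the replicate block is given beside those comparisons, and at 0.06 to 0.28 for CHX in P/I cells, where it is not. Alternatives were the block, an adjusted p under 0.05, median centring, quantile normalization, a filter at a mean of log2 5, all probe sets, a variance trend, the arrays of 2 groups only, and leaving out arrays. Promoters came from RefSeq (GRCm38.p6).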

Additional observations from a re-analysis of the deposited data

Results flagged for a closer look

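Psme4, the gene of the activator PA200, was the 1 member whose P/I effect differed between treatments by the test of the difference on all arrays without a block. It had 0.55 more on the log2 scale in CHX-treated than in DMSO-treated cells (limma adjusted p = 0.0642). Without replicate 1 of every group, 2 member probe sets were called higher and 11 lower, against 9.65% and 10.3% of all tested probe sets. Psme4 lost its call under 12 alternative settings and kept it under 10. Its log2 fold change with P/I was 0.49 in CHX-treated and -0.06 in DMSO-treated cells. Within CHX-treated cells P/I cannot be told apart from the time spent in CHX.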

How the results depend on the processing

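For Psma5, Psma7, Psmb4, Psmb5, Psmd4, Psmd9, Psmd14, Psme2 and Psme4, the log2 fold change kept its sign under every alternative run in each comparison in which the gene was called and given array by array, while the counts of calls moved with the setting. These genes were picked for a call and the alternatives reuse the same arrays, so a kept sign says little. Their calls were lost under 1 (Psmd9 and Psme2, P/I in CHX) to 12 (Psme4, the difference of the P/I effects) of the alternatives. With the replicate number as a block, which gave the counts already stated for P/I in DMSO-treated cells (18 higher, 1 lower), P/I in CHX-treated cells (13 lower) and CHX in unstimulated cells (1 higher), 23 probe sets (43.4%) were lower with CHX in P/I cells, against 16% of all tested probe sets, and the difference of the P/I effects gave 2 higher and 11 lower, against 10% and 12.2%. The numbers were not taken to pair the arrays of these last comparisons, where same-numbered pairs correlated at 0.06 to 0.28 and at 0.06 to 0.75, although each of the 12 arrays correlated best with one of its own number. At an adjusted p under 0.05, P/I in DMSO gave 0 higher, against 7.27% of all tested probe sets. At that threshold CHX in P/I cells gave 1 higher and 5 lower, and the difference of the P/I effects 0 higher. Median centring left 2 lower for CHX in P/I cells, against 2194 of the 23410 tested probe sets. For P/I in CHX it left 0 lower, against 2280. Quantile normalization gave 4 lower for P/I in CHX, against 2602. For the difference it gave 2 higher and 1 lower, against 2065 and 1625. With a variance trend, P/I in DMSO gave 1 higher, against 8.59%, P/I in CHX 0 lower and the difference 0 higher. With the arrays of 2 groups only, P/I in DMSO gave 1 higher, against 7.64%, CHX in P/I cells 1 higher, and P/I in CHX 3 lower. Counts with no share over all tested probe sets beside them cannot be read as particular to these genes. When single arrays, or all arrays of 1 replicate number, were left out, the counts ranged from 0 to 18 higher and 0 to 1 lower for P/I in DMSO, 0 to 3 higher and 1 to 17 lower for CHX in P/I cells, 1 to 8 higher and 0 to 6 lower for P/I in CHX, and 0 to 2 higher and 0 to 11 lower for the difference, with 0 for CHX in unstimulated cells. The cause was not tested. Leaving out a whole replicate number also leaves fewer arrays to estimate the spread from.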
